A study of Mus musculus with 12 samples.

Results

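The ATAC-seq peaks assigned to 9 genes of β-adrenergic and cAMP signalling were examined in adipose tissue with and without BAF60a. The genes were 2 β-adrenergic receptors (Adrb1, Adrb3), the stimulatory G protein subunit (Gnas), an adenylyl cyclase (Adcy3) and the subunits of protein kinase A, catalytic (Prkaca, Prkacb) and regulatory (Prkar1a, Prkar2a, Prkar2b). A peak was included when its assigned gene symbol was one of these names. This gave 119 of 98116 peaks, 78 of 58558 in brown fat and 41 of 39558 in inguinal fat (iWAT). In ATAC-seq a transposase cuts and tags open DNA, so reads at a peak measure how accessible its chromatin is. All mice were of the C57BL/6 strain and carried floxed alleles of BAF60a, a subunit of the BAF chromatin remodelling complex that is encoded by Smarcd1. In AKO mice, Adiponectin-Cre deletes BAF60a in adipocytes of all depots, whereas other cell types keep the gene, and flox/flox littermates without Cre served as flox controls. Brown fat came from 3 mice of each genotype, whose age and housing temperature are not given in the sources used here. The iWAT came from cold-acclimated mice, pooled by genotype and divided into 3 aliquots, so that its p-values measure only the technical spread within 1 pool of each genotype. Reads were of 38 bp per the labels, and the sources used here differ on the number of nuclei per transposase reaction.

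In adipocytes, noradrenaline from sympathetic nerves binds β-adrenergic receptors, which act through the G protein encoded by Gnas to switch on adenylyl cyclase. The cAMP that the cyclase makes binds the regulatory subunits of protein kinase A and sets the catalytic subunits free, and these phosphorylate lipases, lipid droplet proteins and transcription factors of the CREB family. In brown fat this cascade starts heat production by UCP1. The type II regulatory subunit encoded by Prkar2b is the main one of adipose tissue.

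The sequences of 4 peaks are shown because they had among the smallest p-values of these genes. Each is the 300 bases around the centre of the peak on the plus strand of GRCm38 (mm10), and capitals mark matches on either strand to the motif letters searched below. The first 3 had the smallest p of their gene and tissue. Those of Gnas and Adrb1 in brown fat are left out, since the first reaches into an annotated untranslated region and the second spans 5 bp. The peak 43.3 kb upstream of Prkar2b was added after its values were seen.
Prkar2b 36.1 kb upstream, brown fat, chr12:32097283-32097582: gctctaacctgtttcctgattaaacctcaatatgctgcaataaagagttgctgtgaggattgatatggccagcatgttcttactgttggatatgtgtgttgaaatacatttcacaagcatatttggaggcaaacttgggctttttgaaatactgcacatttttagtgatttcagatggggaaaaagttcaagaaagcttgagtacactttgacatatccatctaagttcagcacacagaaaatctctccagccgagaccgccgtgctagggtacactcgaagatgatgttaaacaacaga
Prkar2a 12.6 kb into the gene, intron 1, brown fat, chr9:108704595-108704894: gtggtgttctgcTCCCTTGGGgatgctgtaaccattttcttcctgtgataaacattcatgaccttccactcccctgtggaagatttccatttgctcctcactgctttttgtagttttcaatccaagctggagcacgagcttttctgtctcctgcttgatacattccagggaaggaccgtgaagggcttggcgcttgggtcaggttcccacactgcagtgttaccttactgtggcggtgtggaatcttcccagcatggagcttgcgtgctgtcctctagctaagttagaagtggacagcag
Prkar2b 62.5 kb upstream, iWAT, chr12:32123609-32123908: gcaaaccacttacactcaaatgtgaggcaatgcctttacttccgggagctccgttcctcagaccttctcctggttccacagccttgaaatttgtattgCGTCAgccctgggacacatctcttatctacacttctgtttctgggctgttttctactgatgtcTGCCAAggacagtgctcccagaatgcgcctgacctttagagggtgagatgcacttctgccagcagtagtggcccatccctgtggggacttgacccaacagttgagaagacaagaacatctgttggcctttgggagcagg
Prkar2b 43.3 kb upstream, brown fat, chr12:32104427-32104726: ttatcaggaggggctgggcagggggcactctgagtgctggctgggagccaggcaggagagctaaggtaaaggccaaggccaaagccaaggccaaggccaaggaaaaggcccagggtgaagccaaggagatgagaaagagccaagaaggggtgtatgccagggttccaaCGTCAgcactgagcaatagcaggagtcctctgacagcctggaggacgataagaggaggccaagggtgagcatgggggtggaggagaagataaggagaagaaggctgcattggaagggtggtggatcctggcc
The Prkar2b window 36.1 kb upstream held no match and was AT-rich, with a GC content of 40.0%. It lay in an exon of the long noncoding RNA gene 5430401H09Rik, as did part of the window 62.5 kb upstream. The Prkar2a window held 1 match to the core of an EBF site. The window 43.3 kb upstream of Prkar2b held 1 match to the short form of the cAMP response element (CRE), and the window 62.5 kb upstream held 1 short CRE and 1 NF1 match.

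Depth differed between samples more in brown fat than in iWAT. Reads in peaks came to 10115267 to 27500738 in flox and 6336670 to 13821838 in AKO brown fat, and to 4237080 to 6691161 in flox and 4066720 to 4420019 in AKO iWAT. The first principal component (PC1) of the brown fat values took 55.6% of the variance and ran from -98.2 in flox 1, the deepest sample, to 112 in AKO 2, the shallowest. Its scores were -98.2, -41.8 and 14.6 in flox and -0.617, 112 and 13.5 in AKO. PC1 was thus partly shared with genotype as well as with depth. The brown fat fit held PC1 as a covariate, which can take up part of a difference between the genotypes. How much of PC1 was depth or genotype was not tested. Leaving PC1 out changed the log2 fold change of the 78 peaks by a median of 0.199 and at most 1.28, and turned its sign at 23 of them, so values without PC1 are given for the peaks described with their reads. At the targeted gene, the Smarcd1 peak within the gene held 136, 201 and 185 normalized reads in flox brown fat and 23.7, 57.9 and 26.9 in AKO. The Smarcd1 peak over the start site was present in both groups, with 369 to 485 normalized reads in flox and 412 to 497 in AKO.

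In brown fat, peaks of the cAMP genes were more often lower than higher in AKO, and the peaks that separated the groups lay mostly at Prkar2b and Adrb3, but none passed limma's adjusted p threshold of 0.1. The lowest adjusted p among the 78 peaks was 0.417, and limma called 0.0% of all brown fat peaks. The fitted log2 fold change was negative at 52 of 78 peaks (66.7%), with a median of -0.11, compared with 49.1% and a median of 0.01 over all peaks. Without PC1 it was negative at 59 of 78 peaks (75.6%), compared with 51.7% of all peaks. With limma's unadjusted p below 0.05, 7 member peaks (8.97%) were lower and 4 (5.13%) were higher, where 5.59% and 3.46% of all peaks were. In 13 member peaks (16.7%) every AKO sample lay below every flox sample, against 8.84% of all peaks, and in 2 (2.56%) every AKO sample lay above, against 8.77%. With 3 samples against 3, the smallest p of an exact permutation test is 0.1.

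DESeq2, run on the recovered read counts with the same covariate, called 2 member peaks lower in AKO at an adjusted p under 0.1 and 0 higher. Over all peaks it called 0.217% lower and 0.0803% higher. The 2 were the Gnas peak 15.9 kb downstream of its start and the Prkar2b peak 43.3 kb upstream. For 13 of the 78 peaks DESeq2 gave no adjusted p. edgeR's quasi-likelihood test on the same reads called 0 of the member peaks, with adjusted p = 0.141 and 0.144 at these 2.

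**Figure D1:**
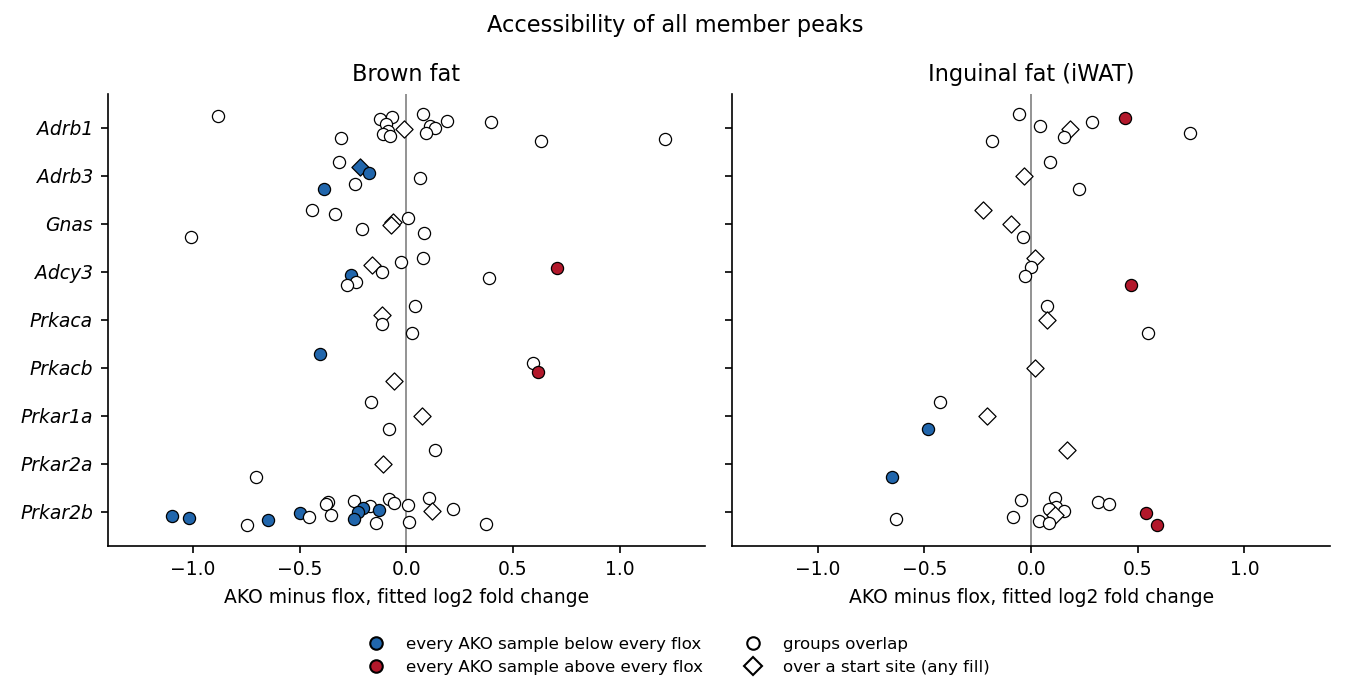
Fitted log2 fold change (AKO minus flox) of each peak of the 9 genes in brown fat (78 peaks) and inguinal fat (41 peaks), 1 point a peak. Diamonds lie over a start site and filled points mark groups that do not overlap: in brown fat 13 points are filled as lower and 2 as higher, in inguinal fat 2 and 4.

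Among the receptors, Adrb3, the main β-adrenergic receptor of rodent adipocytes, had 6 peaks in brown fat and negative fold changes at 5. The peak over its annotated start sites (chr8:27227294-27228799, over exon 2 of the principal transcript) held 1319, 1078 and 960 normalized reads in flox and 899, 701 and 783 in AKO. Every AKO sample lay below every flox sample, at 0.71 times the flox mean. The fitted log2 fold change was -0.22 ± 0.18 (SE, n = 3 mice per genotype, limma adjusted p = 0.749) with PC1 in the fit and -0.49 without it.

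The peak 1.15 kb upstream of the principal Adrb3 start (chr8:27230493-27230973) held 439, 412 and 401 normalized reads in flox and 345, 294 and 362 in AKO. These groups did not overlap either, with a fitted log2 fold change of -0.17 ± 0.17 (SE), limma adjusted p = 0.792, and -0.33 without PC1. At the peak 10.1 kb upstream (chr8:27239454-27239858), flox samples held 172, 182 and 149 and AKO samples 109, 81.1 and 128. It was the Adrb3 peak with the smallest p, with a fitted log2 fold change of -0.39 (95% interval -0.88 to 0.11, limma adjusted p = 0.625), and -0.68 without PC1. The other 3 Adrb3 peaks, at 2.44 and 5.2 kb upstream and 5.54 kb downstream, had overlapping groups and fold changes of 0.06, -0.24 and -0.32. The last of these lay nearer the start of the neighbouring gene Got1l1, at 786 bp. The Adrb3 peaks upstream of the principal start all overlapped the annotated extent of the gene.

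Adrb1, the other β-adrenergic receptor gene measured, is an intronless gene and had 17 peaks in brown fat spread from 84.8 kb upstream to 41.3 kb downstream. None separated the groups. The peak over its start (chr19:56720327-56722886) held 1797, 1374 and 1268 normalized reads in flox and 1351, 858 and 1135 in AKO. The groups overlapped, and the fitted log2 fold change was -0.01 ± 0.18 (SE, limma adjusted p = 0.989), with -0.42 without PC1. A peak 41.3 kb downstream (chr19:56762890-56764038) held 385, 237 and 254 in flox and 391, 321 and 364 in AKO. Its fitted log2 fold change was 0.63 (95% interval 0.09 to 1.17) with an unadjusted p of 0.0272 in limma's fit across all peaks, and the groups overlapped. Without PC1 it was 0.325.

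The smallest p at Adrb1, 0.00837 in limma's fit, belonged to a peak of only 5 bp with 3.86 to 18.6 normalized reads per sample. Its group means were 10.5 ± 6.01 in flox and 10.4 ± 7.5 in AKO (SD, n = 3). The fitted log2 fold change of 1.21 became -0.06 without PC1.

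Gnas encodes the stimulatory G protein and lies in an imprinted locus with several start sites. It had 8 peaks in brown fat, 2 of them over a start site of a principal transcript. The peak over the start of the main G protein transcript (chr2:174329103-174331029) held 1262, 1218 and 939 normalized reads in flox and 1001, 773 and 904 in AKO. The fitted log2 fold change was -0.07 ± 0.18 (SE, limma adjusted p = 0.927), and the neighbouring peak over the upstream start (chr2:174327288-174328107) had -0.06. Without PC1 these were -0.35 and -0.24.

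The Gnas peak with the smallest p lay at the 3' end of the gene (chr2:174345678-174346327), over exons 11 to 13 of the principal transcript and 710 bp from the start of the antisense gene model Gm20721. It held 133, 177 and 234 normalized reads in flox and 118, 166 and 102 in AKO. The groups overlapped, since AKO 2 lay above flox 1, and the fold of the means was 0.707. With PC1 the log2 fold change was -1.01 ± 0.19 (SE, adjusted p = 0.417 in limma and 0.059 in DESeq2), and without PC1 it was -0.49. The remaining 5 Gnas peaks had fitted fold changes of -0.44 to 0.08. These included the weak peaks 42.9 and 28 kb upstream, near the other promoters of the locus, whose AKO means were higher than their flox means.

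Adcy3 encodes an adenylyl cyclase that is present in adipocytes and had 9 peaks in brown fat. The start site peak (chr12:4132960-4134123) held 579, 593 and 482 normalized reads in flox and 421, 431 and 509 in AKO, with a fitted log2 fold change of -0.16 ± 0.20 (SE, limma adjusted p = 0.833), and -0.28 without PC1. In intron 2, 16.8 kb from the start, a small peak (chr12:4150897-4151090) held 40.8, 29.6 and 33.6 in flox and 59.8, 79.2 and 49.9 in AKO. Every AKO sample lay above every flox sample there, with a log2 fold change of 0.71 (95% interval 0.05 to 1.36, unadjusted p = 0.0375 in limma), and 0.83 without PC1. A stronger peak of the same intron, 25.2 kb from the start, went the other way. It held 886, 715 and 545 in flox and 506, 423 and 474 in AKO, with a fitted log2 fold change of -0.26 ± 0.20 (SE), -0.59 without PC1 and groups that did not overlap.

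Both catalytic subunits of protein kinase A had overlapping groups at their start sites. The Prkaca start site peak (chr8:83972301-83973262) held 1282, 1300 and 1137 normalized reads in flox and 934, 919 and 1283 in AKO. The third AKO sample lay within the flox range, and the fitted log2 fold change was -0.12 ± 0.22 (SE, limma adjusted p = 0.898), and -0.26 without PC1. All 4 Prkaca peaks had overlapping groups and fold changes between -0.12 and 0.04. The Prkacb start site peak (chr3:146812289-146813477) held 580, 454 and 538 in flox and 464, 485 and 519 in AKO, with a fitted log2 fold change of -0.06 (95% interval -0.53 to 0.42), and -0.09 without PC1. In Prkacb intron 1, 6.88 kb from the start, a weak peak (chr3:146806008-146806159) held 18.8, 14.8 and 16.8 in flox and 26.8, 34.8 and 24.9 in AKO. The groups did not overlap and the log2 fold change was 0.62 ± 0.23 (SE, unadjusted p = 0.0304 in limma), and 0.74 without PC1.

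Of the regulatory subunits, Prkar2b had the most peaks, 24 in brown fat, and all 8 of its peaks whose groups did not overlap were lower in AKO. The lower peaks lay mainly upstream. Of 12 peaks over 1 kb upstream, 10 had negative fold changes, with a median of -0.40, 6 had groups that did not overlap, and 5 were lower with an unadjusted limma p below 0.05. Of the 12 peaks at the start and in the gene, 8 had negative fold changes, with a median of -0.10, and 0 passed that p. The difference between upstream and gene body peaks was not tested.

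At the Prkar2b peak 43.3 kb upstream (chr12:32104281-32104873), flox samples held 938, 719 and 692 normalized reads and AKO samples 477, 319 and 390. The AKO mean was 0.505 times the flox mean. The fitted log2 fold change was -0.65 ± 0.19 (SE, adjusted p = 0.476 in limma and 0.0823 in DESeq2), and -0.99 without PC1. DESeq2 without PC1 gave an adjusted p of 0.0018 here. That fit called 603 of all 58558 brown fat peaks, against 174 with PC1.

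The peak 36.1 kb upstream (chr12:32097222-32097644) had the smallest limma p of the gene, 0.0024. It held 166, 155 and 197 normalized reads in flox and 78.3, 114 and 108 in AKO, with a log2 fold change of -1.02 (95% interval -1.54 to -0.50) and -0.79 without PC1. Its adjusted p was 0.436 in limma and 0.126 in DESeq2. Every AKO sample lay below every flox sample.

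Nearer the gene, the peak 14.6 kb upstream (chr12:32075303-32076560) held 1003, 1047 and 724 normalized reads in flox and 612, 483 and 526 in AKO. The log2 fold change was -0.50 (95% interval -0.99 to -0.01, unadjusted p = 0.0475 in limma), and -0.76 without PC1. The peak 18.6 kb upstream (chr12:32079800-32080063) held 149, 226 and 114 in flox and 48.5, 85 and 99.8 in AKO, and its log2 fold change of -1.10 ± 0.45 (SE), or -1.06 without PC1, was the most negative of the 78 with PC1. DESeq2 without PC1 called both, with adjusted p = 0.0228 and 0.0954. The remaining upstream peak under 0.05, at 70.9 kb, had overlapping groups, with means of 59.2 ± 23.4 and 55.4 ± 16.7 (SD, n = 3) and a log2 fold change of -0.75 that was -0.06 without PC1.

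**Figure D2:**
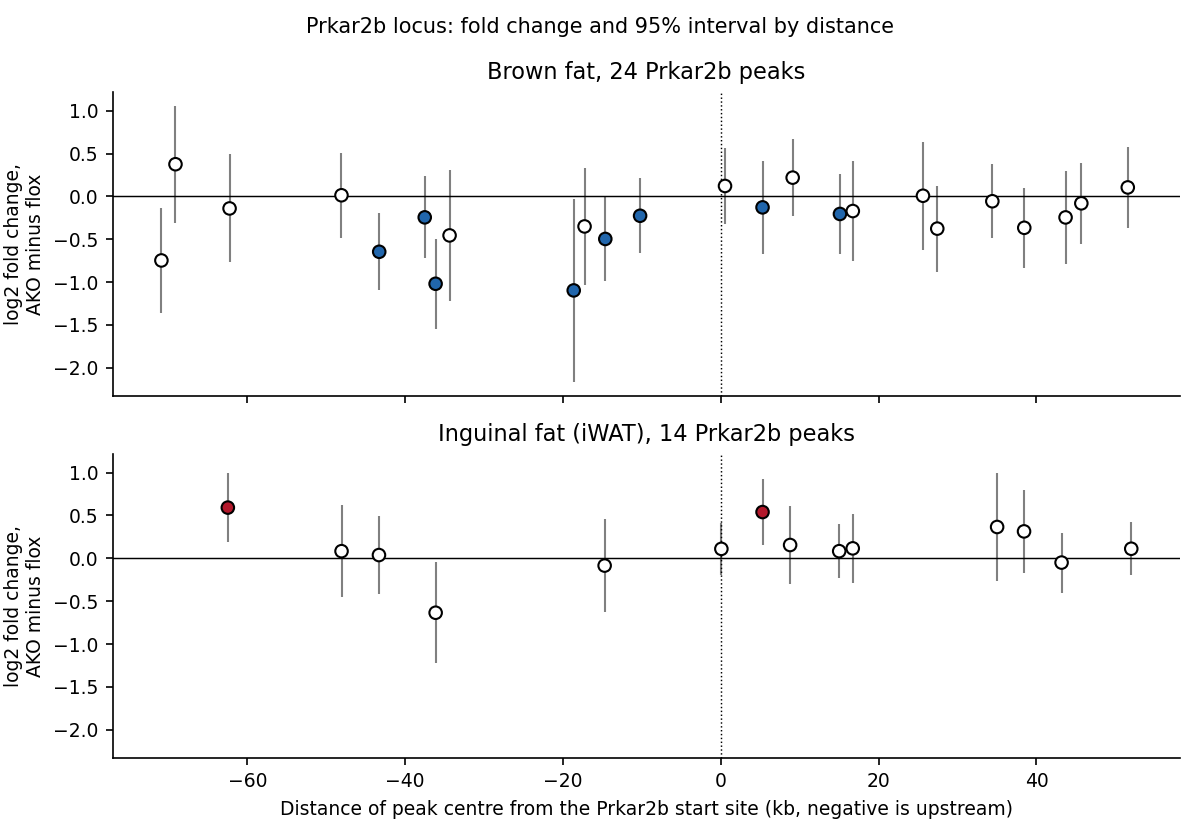
Fitted log2 fold change of each Prkar2b peak against its distance from the start site in brown fat (24 peaks) and inguinal fat (14 peaks). Points are estimates, bars are 95% intervals, blue marks every AKO sample below every flox sample and red every AKO sample above. The brown fat peaks 36.1 and 43.3 kb upstream lie below 0 with their intervals.

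The Prkar2b start site peak (chr12:32059796-32061604) had groups that overlapped. It held 1450, 1353 and 1044 normalized reads in flox and 1142, 803 and 1256 in AKO. The fitted log2 fold change was 0.12 ± 0.19 (SE, limma adjusted p = 0.867), and -0.28 without PC1.

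The other regulatory subunits had 3 peaks each in brown fat. Prkar1a encodes the type I regulatory subunit, and its start site peak (chr11:109650315-109651940) held 683, 553 and 567 normalized reads in flox and 548, 560 and 641 in AKO, with a fitted log2 fold change of 0.08 ± 0.20 (SE) that was -0.04 without PC1. Its smallest p was 0.498 in limma, at a peak 7.48 kb upstream with a log2 fold change of -0.17, and -0.04 without PC1. For Prkar2a, the second type II subunit, the start site peak (chr9:108691854-108693043) held 666, 590 and 602 in flox and 593, 462 and 497 in AKO. Its fitted log2 fold change was -0.11 ± 0.19 (SE, limma adjusted p = 0.885), and -0.265 without PC1. The Prkar2a peak in intron 1, 12.6 kb from the start (chr9:108704486-108705005), held 73.2, 100 and 110 in flox and 63.9, 85 and 70 in AKO. The groups overlapped, and the log2 fold change was -0.70 (95% interval -1.14 to -0.27), with -0.36 without PC1.

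**Figure D3:**
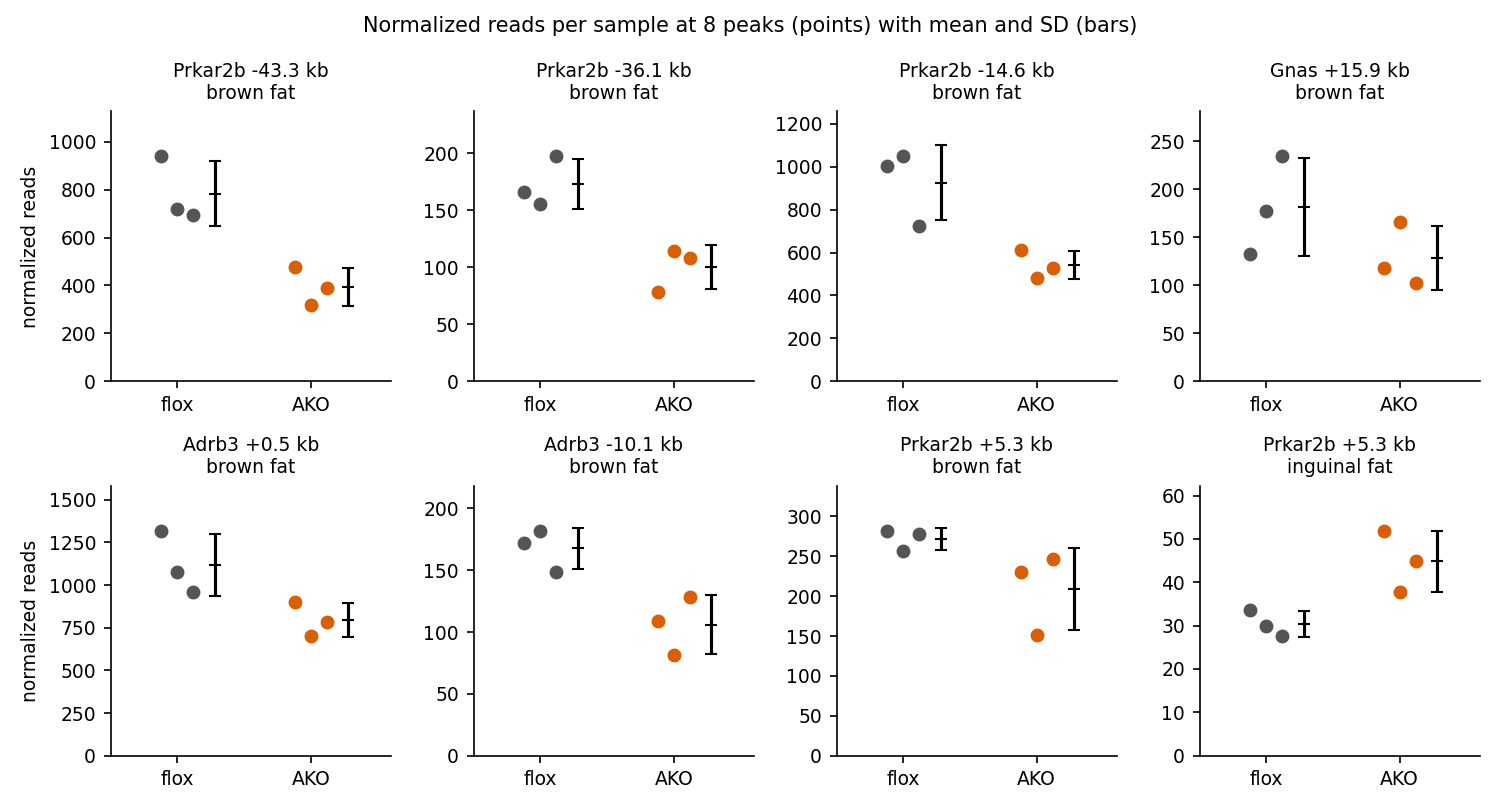
Normalized reads of each sample at 8 peaks, 3 flox and 3 AKO samples each, with the mean and SD beside the points. The distance is from the gene's start. The groups do not overlap at any of these peaks except Gnas, and AKO is above flox only at the inguinal Prkar2b peak.

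Levels per kb of peak were compared at the peak nearest the start of each gene, by the distance the brown fat table lists and by the annotation in iWAT. For Adrb3 in brown fat this was the peak 1.15 kb upstream and not the one over its start sites, and for all others it was a start site peak. In flox brown fat, Prkaca was highest, with 1289 ± 92.9 normalized reads per kb (SD, n = 3), followed by Adrb3 with 868 ± 40.7 and Prkar2b with 709 ± 117. The peak over the Adrb3 start sites held 743 ± 121, and its range of 637 to 876 overlapped that of Prkar2b, 577 to 802. From Prkar2b down through Gnas (591 ± 91), Adrb1 (578 ± 109), Prkar2a (520 ± 34.3), Adcy3 (474 ± 51.9), Prkacb (441 ± 54) and Prkar1a (370 ± 43.9), each range overlapped that of the next gene. In flox iWAT, Prkaca was again highest, with 916 ± 108, followed by Prkar2b with 395 ± 22.8 and Gnas with 254 ± 13.4. Levels of Adrb3 (246 ± 21.1) and Gnas overlapped. The lowest were Adrb1, with 151 ± 2.21, and Adcy3, with 144 ± 36.2. The tables were normalized separately, so levels are not compared between the tissues.

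At start sites the share of negative fold changes was smaller with the covariate, for the 9 genes and for all genes. In brown fat, 10 of the 78 peaks lay over a start site of a principal transcript of the 9 genes, and at all 10 the AKO mean was below the flox mean. Without PC1 their fold changes were -0.49 to -0.04, with a median of -0.27, where start site peaks of all protein-coding genes had a median of -0.06 and were negative in 60.2%. With PC1, 8 of 10 were negative, between -0.22 and 0.12, with a median of -0.07. Start site peaks of all genes then had a median of 0.11 and were negative in 26.7%. None of the 10 had an unadjusted limma p under 0.05.

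**Figure D4:**
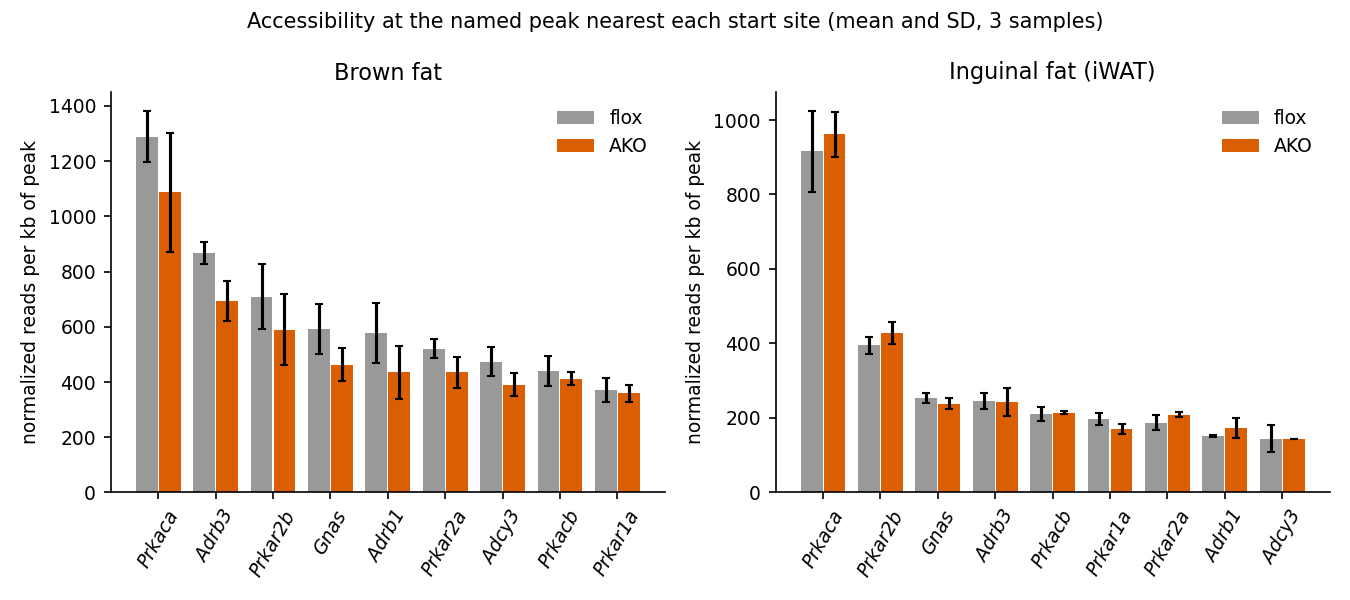
Normalized reads per kb of peak at the peak nearest the start of each gene (for Adrb3 in brown fat the peak 1.15 kb upstream), in order of the flox level, for flox and AKO. Bars are means and error bars SDs of 3 samples. In brown fat the AKO mean is below the flox mean for each of the 9 genes, and in inguinal fat it is above for Prkar2b and below for Gnas.

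In iWAT the balance was different, with more member peaks higher than lower in AKO. The log2 fold change was negative at 14 of 41 peaks (34.1%), with a median of 0.08, compared with 50.1% and a median of -0.0009 over all peaks. limma called 0 of the 41, as it called 0.0% of all iWAT peaks, and the lowest adjusted p was 0.203. DESeq2 called 0 of the 41 at an adjusted p under 0.1, where it called 0.569% of all peaks lower and 0.493% higher, and edgeR also called 0. With limma's unadjusted p below 0.05, 5 peaks (12.2%) were higher and 3 (7.32%) lower, against 7.61% and 7.42% over the whole table. Groups did not overlap at 4 member peaks (9.76%) that were higher and 2 (4.88%) that were lower, against 10.6% and 10.3% of all peaks.

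The iWAT peaks that were higher lay at Adrb1, Adcy3, Prkaca and Prkar2b. The Prkar2b peak 62.5 kb upstream (chr12:32123580-32123939) held 47, 62.3 and 41.3 normalized reads in flox aliquots and 77.2, 75.4 and 72.7 in AKO aliquots. Its log2 fold change was 0.59 ± 0.17 (SE, n = 3 aliquots per genotype, unadjusted p = 0.0103 and adjusted p = 0.203 in limma). In intron 1 of Prkar2b, 5.29 kb from the start (chr12:32055855-32056036), flox aliquots held 33.5, 30 and 27.5 and AKO aliquots 51.9, 37.7 and 44.9. The log2 fold change there was 0.54 (95% interval 0.16 to 0.92, unadjusted p = 0.0117 in limma). The groups overlapped at neither of these peaks.

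The Adcy3 peak in intron 3, 45.8 kb from the start (chr12:4179667-4180173), held 72.7, 81.2 and 86.9 normalized reads in flox and 119, 118 and 98.4 in AKO iWAT. Its log2 fold change was 0.47 ± 0.15 (SE, unadjusted p = 0.0133 in limma). The Adrb1 peak 43.9 kb upstream (chr19:56677639-56678888) held 91.2, 113 and 90.4 in flox and 148, 135 and 119 in AKO, with a log2 fold change of 0.44 ± 0.16 (SE, unadjusted p = 0.024 in limma). These groups were also apart. At Prkaca, a peak over exon 3 (chr8:83980878-83981195) held 40.6, 41.1 and 62.8 in flox and 69.2, 82.2 and 58.8 in AKO, with a log2 fold change of 0.55 (95% interval 0.04 to 1.05, unadjusted p = 0.0367 in limma) and groups that overlapped.

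The lower iWAT peaks belonged to regulatory subunits. All 3 Prkar1a peaks had negative fold changes, of -0.20 at the start, -0.43 at 7.36 kb upstream and -0.48 at 19.8 kb downstream within Fam20a. At the last (chr11:109670587-109670914), flox aliquots held 48.5, 60 and 45.6 and AKO aliquots 35.7, 29.7 and 44.9, which did not overlap (unadjusted p = 0.0383 in limma). The Prkar2a peak in intron 1 (chr9:108704660-108704856) held 14.3, 21.1 and 14.6 in flox and 13.8, 6.85 and 10.7 in AKO, with a log2 fold change of -0.65 ± 0.26 (SE, unadjusted p = 0.04 in limma). The Prkar2b peak 36.1 kb upstream (chr12:32097306-32097549) held 34.2, 22.2 and 40.5 in flox and 16.1, 25.1 and 19.2 in AKO, with -0.64 ± 0.25 (SE, unadjusted p = 0.0387 in limma). Each rests on few reads.

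At Adrb3, iWAT showed 3 peaks, none of which separated the groups. The peak over its start sites (chr8:27227994-27228772) held 182, 211 and 183 normalized reads in flox and 211, 201 and 156 in AKO, with a log2 fold change of -0.03 (95% interval -0.41 to 0.35). The peak 1.24 kb upstream held 57.7, 52.3 and 101 in flox and 65.7, 98.2 and 75.9 in AKO, with a log2 fold change of 0.23 (95% interval -0.41 to 0.86). The fitted brown fat values of the matching peaks, -0.22 and -0.17, lay within these intervals. Start site peaks of the other genes in iWAT had fold changes of -0.22 at the upstream Gnas start to 0.18 at Adrb1. Of 10 start site peaks, 0 had an unadjusted limma p under 0.05.

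Nearly every iWAT peak of these genes was also a brown fat peak. Of 41 iWAT peaks, 40 (97.6%) overlapped a brown fat peak by at least 1 bp, whereas 40 of 78 brown fat peaks (51.3%) overlapped an iWAT peak. The 40 pairs were 11 with negative fold changes in both tissues, 8 with positive in both, 19 negative in brown fat and positive in iWAT, and 2 the other way. At an unadjusted p under 0.05 in both tissues, 2 pairs were lower in AKO in both. These were the Prkar2b peak 36.1 kb upstream, with log2 fold changes of -1.02 and -0.64, and the Prkar2a peak in intron 1, with -0.70 and -0.65. Over all peaks, 5.59% in brown fat and 7.42% in iWAT were lower by that rule in limma. The share of all overlapping pairs that passed in both tissues is not given here, so the 2 pairs have no background. At the Prkar2b peak 43.3 kb upstream, the values were -0.65 in brown fat and 0.04 in iWAT, and at the peak 14.6 kb upstream -0.50 and -0.08. Differences between tissues were not tested, since the tables were normalized separately and their replicates are mice in one and aliquots in the other.

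**Figure D5:**
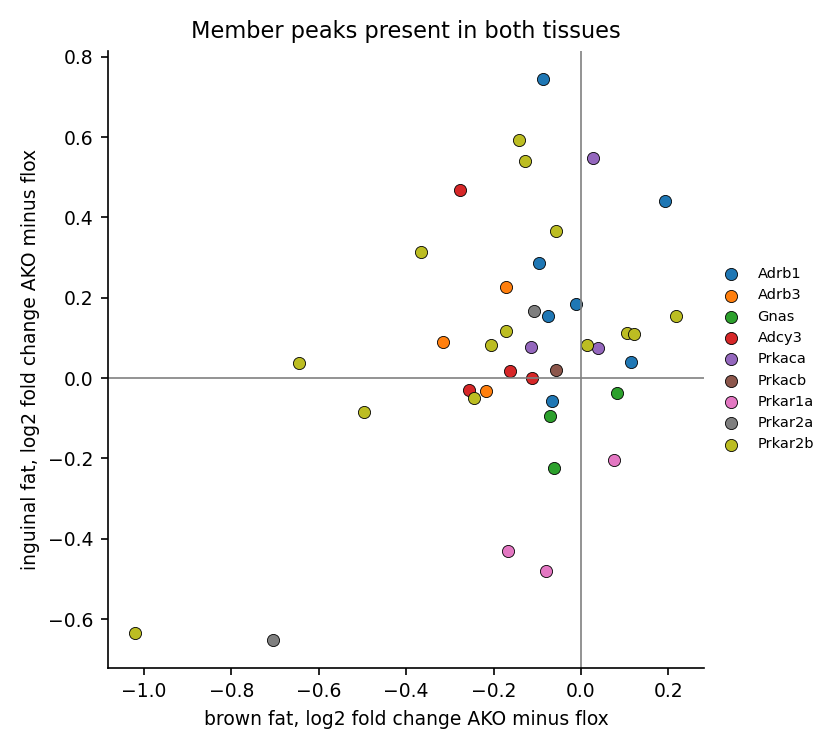
Log2 fold change (AKO minus flox) in brown fat against that in inguinal fat for the 40 pairs of overlapping peaks, coloured by gene. In all, 19 pairs lie at the upper left, negative in brown fat and positive in inguinal fat, and the Prkar2b and Prkar2a pairs at the lower left have the lowest values.

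Beyond the 9 genes, 79 other genes of the pathway were listed (receptors, G proteins, cyclases, phosphodiesterases, anchoring proteins, CREB factors and regulators), and 76 had peaks in each table. In brown fat, 33 of their 479 peaks (6.89%) were lower at an unadjusted limma p under 0.05 and 16 (3.34%) higher, close to the shares of all peaks given above, with a median log2 fold change of -0.05. limma called 0 of them and DESeq2 called 1, lower in AKO, where it called 0.217% of all peaks lower. The called peak lay 86355 bp from the start of Rgs2, a regulator of G protein signalling, and held 277, 322 and 303 normalized reads in flox and 160, 116 and 147 in AKO. Its log2 fold change was -0.97 ± 0.21 (SE, adjusted p = 0.436 in limma and 0.0309 in DESeq2). The other lower peaks with the smallest p were at Sik2 (-1.06, groups overlapping) and Creb5 (-0.76). Among the higher peaks with the smallest p were 2 Akap13 peaks (0.74 and 0.50).

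In iWAT, 26 of 258 peaks (10.1%) of these other pathway genes were lower and 17 (6.59%) higher at an unadjusted limma p under 0.05. Over all iWAT peaks the shares were 7.42% and 7.61%. The median log2 fold change of the pathway peaks was -0.01. limma called 0, and DESeq2 called 3 lower and 1 higher, where it called 0.569% of all peaks lower and 0.493% higher. The lower peaks with the smallest p were at Crebbp (-0.94), Creb5 (-1.25) and Pde11a (-0.97), a phosphodiesterase. At Pde11a, flox aliquots held 72, 53.4 and 62 normalized reads and AKO aliquots 33.4, 25.1 and 36.4 (adjusted p = 0.151 in limma and 0.0883 in DESeq2). The higher ones were at Akap2 (0.61), Adcy9 (0.59) and Sik1 (0.53). At Akap2, an anchoring protein of protein kinase A, flox aliquots held 84.1, 93.4 and 76.6 and AKO aliquots 136, 121 and 132 (adjusted p = 0.152 in limma and 0.099 in DESeq2).

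Whole tissue holds several cell types, and in bulk samples fewer cells of a type and lower accessibility per cell cannot be told apart. In brown fat, all 6 adipocyte marker genes had peaks, and their summed level was 16961 to 19740 normalized reads in flox and 11573 to 16241 in AKO. All 9 brown adipocyte markers had peaks, with 24751 to 29586 in flox and 17308 to 18760 in AKO. Of their 81 peaks, 33 were lower at an unadjusted limma p under 0.05 and 0 higher, where 5.59% and 3.46% of all peaks were. Of the 24 adipocyte marker peaks, 0 were lower and 1 higher by the same rule. The summed level of both lists was lower in every AKO sample, as were the Adrb3 start site peak and the Prkar2b peaks 43.3, 36.1, 18.6 and 14.6 kb upstream. Endothelial (2448 to 2642 in flox, 2367 to 2799 in AKO), skeletal muscle (463 to 532, 445 to 666) and nerve markers (1162 to 1242, 1107 to 1335) overlapped between genotypes. So did macrophage markers (169 to 276, 177 to 216), of which Cd68, Csf1r, Ptprc and Lyz2 had no peak. Fibroblast or preadipocyte markers were lower in every AKO sample, at 3335 to 3464 in flox and 3162 to 3281 in AKO. The part of these levels in the results was not tested.

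In iWAT, adipocyte (2582 to 3248 in flox, 2537 to 2779 in AKO) and brown adipocyte markers (1647 to 1889, 1710 to 1900) overlapped between genotypes. Fibroblast or preadipocyte (1716 to 1843, 1603 to 1862), skeletal muscle (223 to 263, 245 to 273) and nerve markers (138 to 151, 150 to 194) did too. Endothelial (766 to 855, 671 to 740) and macrophage markers (268 to 327, 175 to 240) were lower in every AKO aliquot. Their part in the iWAT results was not tested.

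The 5 brown fat peaks of other genes whose values over the 6 samples were most like those of the Adrb3 peak 1.15 kb upstream lay at Galnt2, Bdh1, 1700084D21Rik, Trib1 and Trim67, with Pearson's r on the log2 scale of 0.998 to 0.995. The points share library depth, and 2592 other peaks had an r over 0.9.

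Motif letters were counted on both strands in the 300 bases around each peak centre. The full CRE, TGACGTCA, was in 0 of 78 brown fat and 0 of 41 iWAT windows of the 9 genes, and in 0.693% and 0.966% of all windows. Its short form TGACG, which the full CRE contains, was in 15 brown fat windows (19.2%, all peaks 15.2%) and 9 iWAT windows (22.0%, all peaks 17.5%). The core of the PPAR response element, CAAAGGTCA, was in 2 brown fat windows, of the Adrb3 peak 2.44 kb upstream and the Prkar2b peak 70.9 kb upstream, and in 0.953% of all windows. In iWAT it was in 0 windows, with 0.657% of all. The EBF core CCCNNGGGA was in 9 (11.5%, all peaks 11.1%) and 3 (7.32%, all peaks 9.49%). The C/EBP letters TTGCNNAA were in 10 (12.8%, all peaks 15.1%) and 5 (12.2%, all peaks 14%), and the NF1 letters TTGGCA in 13 (16.7%, all peaks 24.1%) and 10 (24.4%, all peaks 20.6%). Among 21 RefSeq promoters of GRCm38 that carried a member's symbol, the full CRE was in 2, both of Prkar1a, and in 1.79% of all promoters. No promoter of Adrb3 was among them, so that one was not searched.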

How the data were processed

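ATAC-seq was measured in 12 samples, 3 flox and 3 AKO of brown fat and of iWAT. The authors trimmed adapters, mapped reads to mm10 with bwa 0.7.17-r1188, marked duplicates with Picard 2.8.14, kept autosomal reads of high mapping quality, called broad peaks per sample with MACS2 2.1.1.20160309, merged those found in several samples of a genotype and counted reads in them with bedtools 2.27.1. The deposited signal values are normalized reads: the authors scaled each sample's counts by its own DESeq2 1.20.0 size factor, separately in each tissue. Each peak carries the gene symbol that the authors assigned with HOMER, which is not always that of the nearest start in the annotation used here. The tables also hold the authors' fold changes and p-values, which were not used. Depth per sample stands in the report, and low peaks have the least precision. Dividing each column by its smallest step gave whole reads for 100% of values, within 3.34e-06.

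The test was limma 3.58.1 (lmFit, eBayes) on log2(normalized reads + 1) over all peaks of a table, comparing AKO with flox at a Benjamini-Hochberg adjusted p of 0.1. The brown fat model held PC1, following the authors. Fold changes are on that scale, which understates low peaks. DESeq2 1.42.0 and edgeR 4.0.16 were run on the recovered reads under R 4.3.3. In simulated data at the depth of the 58558 brown fat peaks, limma recovered 0 of 100 changes of 1 log2 unit and 53 of 100 of 2 units, with 3 false calls. DESeq2 recovered 54 and 98, with 39 false calls. For the 39558 iWAT peaks, limma recovered 68 and 100, with 21 false calls. Changes were simulated only at peaks with a mean of at least 100 reads, so recovery at weaker peaks is not covered. The simulated samples differed by depth, genotype and random spread only, without the PC1 pattern of the brown fat samples. Distances run from the nearest principal GENCODE start to the peak centre, and coordinates are as listed, with counting from 0 or 1 not given in the sources used here. The genes, lists and tests were chosen with earlier results of these data known. For each gene and tissue, the peaks named in full were the one nearest a start site (by the listed distance in brown fat, by the annotation in iWAT) and the one with the smallest p, and for the other pathway genes the 3 of smallest p in each direction. Others named were chosen after their values were seen. A pathway peak under this rule and a marker list are not reported here. Alternatives covered normalization, test, pseudocounts of 0.1 and 10, a filter of 10 normalized reads, the covariate, blocks and each sample left out. There were 0 unused columns of sample values.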

Additional observations from a re-analysis of the deposited data

Results flagged for a closer look

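The Prkar2b peak in intron 1, 5.29 kb from the start, drew attention because every sample moved one way in brown fat and the opposite way in iWAT. Brown fat held 282, 256 and 278 normalized reads in flox and 230, 151 and 247 in AKO, with a fitted log2 fold change of -0.1281, and -0.41 without PC1. In iWAT the log2 fold change was 0.5399. The difference between the tissues was not tested. The brown fat value is small beside its error of 0.23 (SE).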

How the results depend on the processing

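At an adjusted p under 0.1, the count of member peaks lower in brown fat moved from 0 to 2 with DESeq2 and to 3 with DESeq2 without the PC1 covariate, an alternative added after the data were seen, as were limma-trend and the use of these alternatives on the pathway list. Over all 58558 brown fat peaks, calls in either direction were 174 with DESeq2 and 603 with DESeq2 without PC1. Higher calls in brown fat and calls in either direction in iWAT were 0 under all alternatives.

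Unadjusted counts moved more. In brown fat, 4 member peaks were higher, and this became 1 with DESeq2, 1 with edgeR, 2 without PC1, 1 with DESeq2 without PC1 and 2 with limma-trend. Over all 58558 brown fat peaks, 2027 higher became 1575, 2644, 4435, 4366 and 2574 in those fits. In iWAT, the 3 lower member peaks became 0 with DESeq2, with PC1 as a covariate and with limma-trend, and the 5 higher peaks became 1 with PC1 as a covariate. Over all 39558 iWAT peaks, 2934 lower became 2513, 1129 and 3504 in those fits, and 3009 higher became 426 with PC1 as a covariate. PC1 separates the genotypes in iWAT, so that fit has little left to estimate. Leaving out samples gave 4 to 8 lower and 0 to 5 higher member peaks in brown fat and 1 to 2 lower and 3 to 6 higher in iWAT. In brown fat the higher count was 0 without flox 3, 1 without AKO 1 and 2 without flox 2, and the lower count 4 without flox 2. In iWAT the lower count was 1 without flox 1 or any AKO aliquot and 2 without flox 2 or flox 3, and the higher count 3 without flox 1 or AKO 2. Over all peaks, leaving out samples gave 2454 to 3473 lower and 1276 to 2516 higher in brown fat. For all iWAT peaks the counts were 2125 to 3034 lower and 2203 to 3138 higher.

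Replicate numbers did not pair the samples, with correlations of same-numbered deviations of 0.494, 0.0632 and -0.236 in brown fat and of -0.0387 to -0.0566 in iWAT. With the replicate block and PC1, brown fat had 3 lower and 2 higher member peaks, and 9 higher pathway peaks. Over all brown fat peaks that fit had 3612 lower and 2113 higher. Without PC1, the block gave 39 higher pathway peaks, where 5444 of all 58558 brown fat peaks were higher. The iWAT replicate block gave 0 lower member peaks, where 2697 of all 39558 iWAT peaks were lower.

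For the pathway list, calls moved from 0 to 1 (DESeq2) and 2 (DESeq2 without PC1) of 479 peaks in brown fat. These settings called 174 and 603 of all 58558 brown fat peaks. In iWAT, pathway calls moved from 0 to 4 (DESeq2), 12 (edgeR) and 10 (limma-trend) of 258 peaks. There the settings called 420, 1846 and 1440 of all 39558 peaks. The 33 lower brown fat peaks became 17 with DESeq2, and the 16 higher became 33 without PC1 and 30 with DESeq2 without PC1. Over all brown fat peaks, 3274 lower became 1920 with DESeq2, and 2027 higher became 4435 and 4366 in those fits. In iWAT, 26 lower became 17 with DESeq2 and 5 with PC1, and 17 higher became 2 with PC1. Over all iWAT peaks, 2934 lower became 2513 and 1129, and 3009 higher became 426. Leave-one-out counts were 21 to 36 lower and 3 to 28 higher in brown fat and 18 to 32 and 11 to 17 in iWAT. The cause of these changes was not tested.

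Of 34 named peaks, 14 kept their sign under every alternative, among them the Gnas peak 15.9 kb downstream (-1.19 to -0.49), the Prkar2b peak 36.1 kb upstream (-1.19 to -0.78) and both named brown fat Adrb3 peaks. Depth limits the peaks with few reads. With 1 sample fewer, groups separate more easily, and the count of member peaks lower without overlap became 17 to 27 in brown fat and 3 to 6 in iWAT, and that of higher peaks 2 to 5 and 6 to 9. The matching shares over all peaks with 1 sample fewer are not given here. These counts therefore cannot be read as more or less than over all peaks. With at least 50% of a peak required to overlap the other tissue's, 25 brown fat and 39 iWAT peaks were shared in place of 40 and 40.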
